A study of Mus musculus with 22 samples.

Results

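Krüppel-like factors (KLFs) are zinc finger proteins that bind GC-rich and CACCC-type elements in promoters and enhancers. The 10 genes described here (Klf1, Klf2, Klf3, Klf4, Klf5, Klf6, Klf9, Klf10, Klf13 and Klf15) were selected by name, out of 31053 genes in the matrices, with their level (CPM, the UMIs of a gene in each 1000000 of a library) and their share of positive barcodes by library kind, by genotype of circulating cells and by cell class already in view. Those levels are therefore given as a description with no test, and the genes were tested on a contrast that the selection did not use, the Nalcn genotypes of solid tissue. The other 7 KLF genes (Klf7, Klf8, Klf11, Klf12, Klf14, Klf16 and Klf17) were kept as a list beside them.

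The libraries were droplet single-cell RNA profiles (10x Chromium, 3′ chemistry) of mice without tumours, where a barcode stands for 1 droplet and each UMI, a random molecular tag, for 1 captured transcript. Every mouse carried Prom1-CreERT2, a tamoxifen-inducible recombinase driven by the stem and progenitor cell gene Prom1, and Rosa26ZSG, the ZsGreen lineage reporter. Groups were Nalcn wild type (wt), Nalcn-het and Nalcn-null, Nalcn being the gene of a sodium leak channel. The paper describes the altered Nalcn allele as conditional, deleted after tamoxifen in cells where the recombinase is active. ZsGreen-positive cells sorted from blood (ntCZC) came as 2 wt libraries (571 and 608 days, male), 4 het libraries (551, 551 and 610 days, male, and 649 days, female) and 4 null libraries (552 days, male, and 551, 612 and 613 days, female). Tissue libraries held kidney, liver, lung and stomach with epididymis or uterus, pooled, from 5 wt (571, 571 and 608 days, male, and 611 and 654 days, female), 2 het (551 days, male) and 2 null libraries (552 days, male, and 611 days, female). A single wt library of blood mononuclear cells (PBMC) came from a male of 120 days and had no replicate. Another 2 tissue libraries bore conflicting genotype labels and entered no comparison. The labels name no animals, so the spread between libraries may be partly technical.

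Each family member pairs a conserved run of 3 zinc fingers at its carboxyl end with a regulatory region of its own. Klf2 and Klf4 are shear-responsive factors of endothelium, and Klf2 also holds lymphocytes and monocytes in quiescence. Klf9 and Klf13 recruit the Sin3 repressor complex, and Klf9 is induced by glucocorticoids and follows the circadian clock. Klf3 recruits the CtBP corepressors, Klf10 is induced by TGF-β, Klf6 answers injury, Klf5 marks proliferating epithelium, Klf15 regulates gluconeogenesis and amino acid use in liver and kidney, and Klf1 directs erythroid gene expression. MEF2 factors downstream of the kinase Mapk7 induce Klf2.

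The promoters of Klf2 and Klf9 are shown because these genes carried the main differences described here. Klf2 was high in 9 of 10 circulating libraries and Klf9 low in the 2 wild-type circulating libraries. Of these 2, replicate 3 was shallow and held 0 Klf9 UMIs. Both windows hold the 250 bases before the start given by RefSeq, on the plus strand of GRCm38.p6. Klf2 lies at chr8:72318812-72319061 and Klf9 at chr19:23140976-23141225, and capitals mark the KLF core CACCC or its complement GGGTG and the MEF2-type match CTANNNNTAG.
Klf2: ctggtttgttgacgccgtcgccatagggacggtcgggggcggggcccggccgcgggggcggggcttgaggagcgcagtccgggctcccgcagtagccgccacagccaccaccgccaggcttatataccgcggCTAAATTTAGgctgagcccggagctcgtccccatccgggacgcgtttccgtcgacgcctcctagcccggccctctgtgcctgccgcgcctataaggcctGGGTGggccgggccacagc
Klf9: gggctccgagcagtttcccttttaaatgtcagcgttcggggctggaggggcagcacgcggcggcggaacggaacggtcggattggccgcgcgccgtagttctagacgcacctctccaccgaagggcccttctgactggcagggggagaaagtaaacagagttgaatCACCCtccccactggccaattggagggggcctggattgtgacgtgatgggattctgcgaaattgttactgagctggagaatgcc
Of the 10 genes, 8 had such a window, and Klf5 and Klf10 had none. The Klf2 window held 71.2% G and C, a KLF core 19 bases before the RefSeq start and the MEF2-type match at 118 bases. In the GENCODE annotation Klf2 starts at base 72319033, inside this window, so that core lies after the GENCODE start and the MEF2-type match before it. The MEF2-type match occurred in no other of the 8 windows and in 3.2% of 32851 promoter windows of the same length. The Klf9 window held 59.6% G and C and a KLF core 84 bases before the start, a motif present in 52% of all windows on either strand. GC boxes (GGGCGG) were found in Klf2, Klf3, Klf4, Klf6, Klf13 and Klf15, against 32.7% of all windows, and E-boxes (CACGTG) in Klf4, Klf6 and Klf15, against 6.02%. In the GRCm38 annotation the genes themselves run from 2624 bases (Klf2, 3 exons in the first listed transcript) to 52565 bases (Klf13, 2 exons).

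Depth differed between kinds. ntCZC libraries held 50 to 621 barcodes and 161541 to 2600526 UMIs, tissue libraries 1856 to 27857 barcodes and 8571019 to 139793927 UMIs, and the PBMC library 752 barcodes and 1422144 UMIs. Of 179929 barcodes, 95843 passed (200 genes or more, mitochondrial UMIs of 25% or less), and 28425 of these (29.7%) met the marker gate for a class. ntCZC wt replicate 3 stood apart, with 11 of 77 barcodes passing, a median of 325 UMIs and 73.5% haemoglobin UMIs, so the means by kind are also given without it. Haemoglobin took 0.333% to 32.4% of UMIs in the other ntCZC libraries. Mitochondrial UMIs took 2.04% to 6.4% in the ntCZC libraries and 20.8% to 52.3% in the tissue libraries with a group. Nalcn had 0 UMIs in every ntCZC and PBMC library and 0 to 18 per tissue library, so its RNA could not check the genotype labels. Sex labels were matched by Xist and 4 Y-linked genes, except that tissue null replicate 3, labelled female, held 31.2 CPM of the Y-linked genes beside 1347 CPM of Xist, against at most 0.117 CPM of them in the female wt tissue libraries. Libraries shared at most 2.6% of the smaller library's barcodes.

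Klf2 and Klf13 were the members with the highest circulating levels relative to tissue. In the sorted circulating cells Klf2, which restrains activation and migration of leukocytes, stood at 1244 and 229 CPM in the wt libraries. The het libraries held 1644, 1322, 811 and 819 CPM, and the null libraries 1367, 1713, 984 and 1142 CPM. Tissue libraries ran from 177 to 336 CPM with a median of 221, and the PBMC library stood at 823 CPM. Thus 9 of 10 ntCZC libraries lay above every tissue library, and the exception was wt replicate 3. The means were 1128 ± 440 CPM (SD, n = 10) and 234 ± 44.8 CPM (SD, n = 9). Without wt replicate 3 the ntCZC mean was 1227 CPM. On passing barcodes all 10 lay above, at 1364 ± 367 against 341 ± 67.2 CPM. In such sums fewer cells of a type and less RNA per cell cannot be told apart.

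Klf13, a zinc finger activator of chemokine genes in T cells and a partner of Sin3, stood at 528 and 43.3 CPM in ntCZC wt, at 356, 568, 158 and 668 CPM in het and at 278, 541, 331 and 377 CPM in null. Tissue libraries ran from 46.4 to 100 CPM and the PBMC library stood at 294 CPM. Again 9 of 10 ntCZC libraries exceeded every tissue library and wt replicate 3 fell below them, while all 10 exceeded on passing barcodes. The ntCZC mean was 385 ± 195 CPM (SD, n = 10), or 423 CPM without that library, against 77.9 ± 16.5 CPM in tissue (SD, n = 9). As a background for these 2 genes, 0.865% of 6474 genes with a mean of 20 CPM or more in either kind lay higher in every ntCZC library than in any tissue library, and 10.6% did so without ntCZC wt replicate 3. Both shares are taken over all barcodes, and none was counted on passing barcodes. Since the selection used this contrast, nothing is read from these shares.

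Klf10, a TGF-β-induced repressor, showed a smaller difference, with 76.6 ± 28.5 CPM in ntCZC against 37.4 ± 7.41 CPM in tissue and 8 of 10 ntCZC libraries above every tissue library (81.7 CPM without wt replicate 3). Klf3, whose partner is CtBP, ranged from 24.8 to 387 CPM in ntCZC (mean 179 CPM, or 196 CPM without wt replicate 3), with 7 libraries above and 2 below the tissue range of 79.0 to 120 CPM. Both genes overlapped between kinds. In PBMC, Klf3 stood at 319 CPM, near the upper ntCZC values, and Klf10 at 14.8 CPM, below every other library.

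Over all barcodes, Klf6, Klf4 and Klf9 had similar means in the circulating cells and tissue. Klf6 averaged 306 ± 98.7 CPM (SD, n = 10) and 279 ± 73.2 CPM (SD, n = 9). Klf4, a factor shared by endothelium, epithelium and monocytes, averaged 225 ± 116 and 232 ± 53.1 CPM, but stood at 17.6 CPM in PBMC. Klf9 averaged 72.7 ± 47.0 and 78.4 ± 16.0 CPM and stood at 15.5 CPM in PBMC, on 22 UMIs. The ranges overlapped for all 3 genes. Without ntCZC wt replicate 3 the ntCZC means over all barcodes were 331 CPM for Klf6, 249 CPM for Klf4 and 80.8 CPM for Klf9. On this scale Klf4 and Klf9 then lie above rather than below the tissue mean. On passing barcodes of all 10 ntCZC libraries the means were lower than in tissue. They were 375 against 423 CPM for Klf6, 255 against 373 CPM for Klf4 and 85.4 against 96.6 CPM for Klf9. There 5 ntCZC libraries lay below every tissue library for Klf4 and 0 above, and 3 below and 3 above for Klf9.

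Klf5 and Klf15 were nearly absent from the sorted cells. Klf5, a factor of epithelial proliferation, gave 12 UMIs over the 10 ntCZC libraries (0 to 3.42 CPM) and 2 UMIs in PBMC, against 7.75 to 35.1 CPM in tissue. Klf15 gave 1 UMI in ntCZC and 0 in PBMC, against 4.92 to 16.2 CPM in tissue. Neither gene overlapped between ntCZC and tissue, which was so in the lower direction for 13% of the 6474 genes averaging 20 CPM or more, a level that these 2 genes do not reach. Klf1, the erythroid factor, gave 2 UMIs in ntCZC and 201 in tissue (0 to 0.763 CPM), although haemoglobin made up as much as 73.5% of the UMIs of an ntCZC library.

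**Figure D1:**
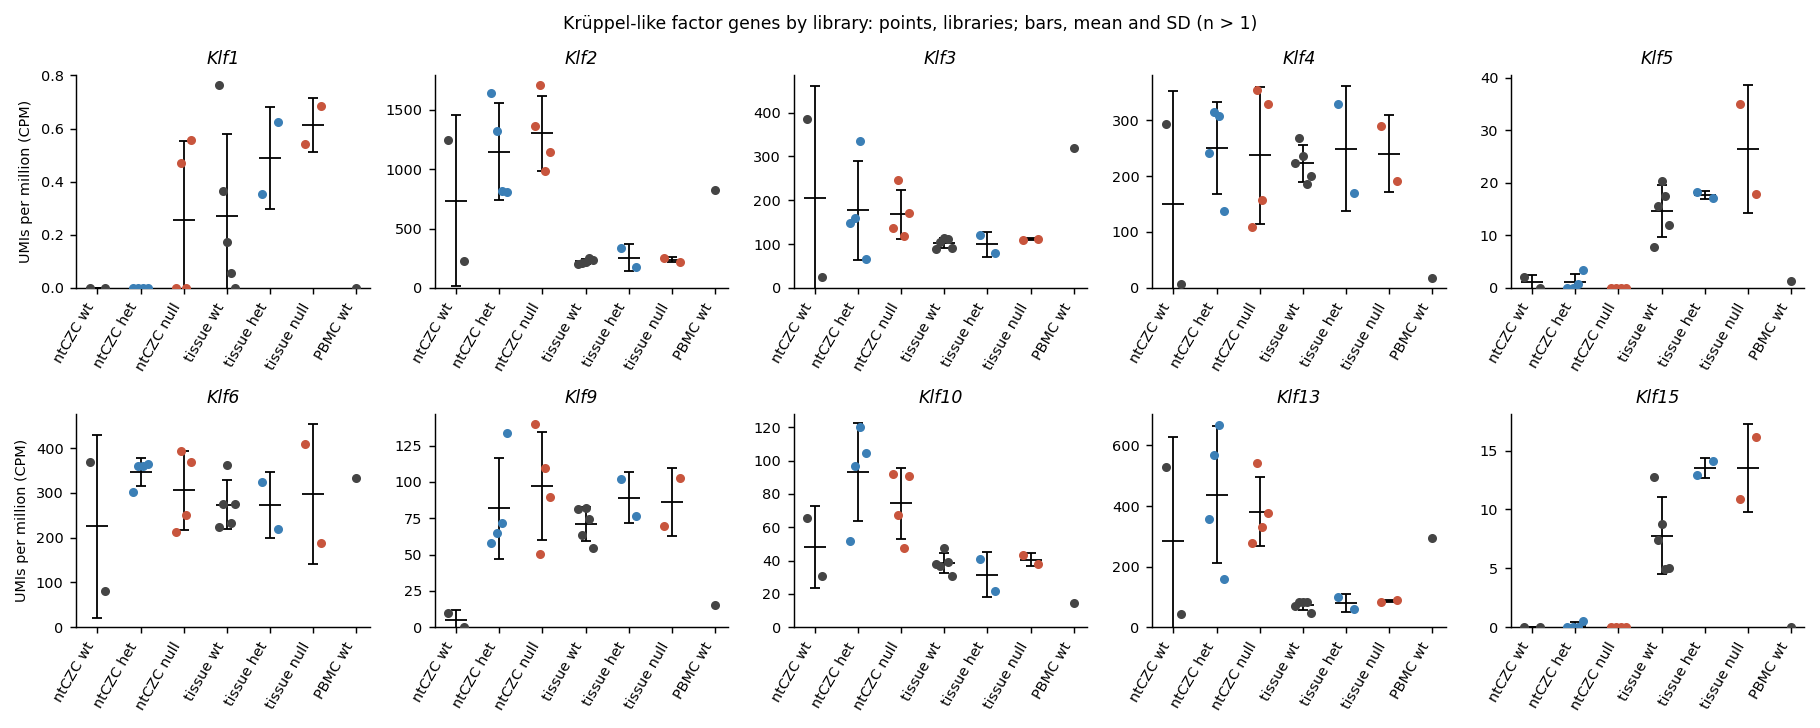
Level of the 10 genes in CPM (vertical axis, a scale per gene) in every library, by kind and genotype (horizontal axis), with mean and SD bars that are clipped at 0. Klf2 and Klf13 sit above tissue in 9 of 10 ntCZC libraries, Klf5 and Klf15 sit at or near 0 there, and Klf9 is lowest in the 2 ntCZC wt libraries.

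For Klf2 and Klf13 the share of passing barcodes with a UMI followed the levels. After each cell was thinned to 1000 UMIs (1961 ntCZC and 60670 tissue barcodes deep enough), Klf2 was found in 57.0% of ntCZC and 24.2% of tissue barcodes, and Klf13 in 38.9% and 11.2%. Unthinned, the shares were 79.1% and 38.8% for Klf2 and 77.2% and 26.6% for Klf13. Klf9 was found in 6.53% of ntCZC and 8.73% of tissue barcodes after thinning, and in 21.3% and 18.8% unthinned. Klf4, whose mean level on passing barcodes was lower in ntCZC (255 against 373 CPM), was found in more of the ntCZC barcodes. The Klf4 shares were 23.2% in ntCZC and 21.1% in tissue after thinning, and 51.6% and 34.8% unthinned. In erythroid-like cells of tissue the thinned shares were 2.93% for Klf2 and 1.47% for Klf13 (273 cells, median 3287 UMIs). Whether these cells transcribe the genes was not tested, so the shares are not a measure of free RNA.

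Klf9 differed most between the ntCZC genotypes. The wt libraries held 9.56 CPM (18 UMIs, 95% Poisson interval 5.66 to 15.1) and 0 CPM, where a floor of 3 counts in this shallow library corresponds to 18.6 CPM. The het libraries held 57.8, 64.6, 133 and 71.9 CPM and the null libraries 140, 50.7, 109 and 89.7 CPM. Both wt libraries thus lay below every het and null library, with means of 4.78 ± 6.76 CPM (SD, n = 2), 81.9 ± 34.8 CPM (SD, n = 4) and 97.4 ± 37.3 CPM (SD, n = 4). Without replicate 3 the wt group is 1 library, at 9.56 CPM. The het and null libraries also split by sex, with 50.7 to 71.9 CPM in the 4 male and 89.7 to 140 CPM in the 4 female libraries. Both wt libraries were male, so the genotype means mix genotype with sex. The male libraries held 9.56 and 0 CPM in wt, 57.8, 64.6 and 71.9 CPM in het and 50.7 CPM in null. The part of sex in the Klf9 difference was not tested. Het and null overlapped. Of 5078 genes with a mean of 20 CPM or more in ntCZC, 3.43% had both wt libraries below every other ntCZC library, and the selection of Klf9 used this contrast. After thinning, a Klf9 UMI was found in 1.27% of 473 wt, 8.90% of 843 het and 7.29% of 645 null barcodes.

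In tissue the same gene showed no such gap. Klf9 stood at 81.3, 63.4, 81.8, 74.2 and 54.3 CPM in wt, at 102 and 76.7 CPM in het and at 69.9 and 103 CPM in null tissue. The wt range overlapped that of het and of null. All 9 tissue libraries exceeded ntCZC wt replicate 1.

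In blood, Klf9 was highest in macrophage-like cells, whose gate included the complement genes C1qa, C1qb and C1qc and the surface proteins Adgre1 and Mrc1. The 53 ntCZC cells gated to this class held Klf9 at 363 CPM (95% Poisson interval 310 to 423), and they carried 16.4% of the 1020 Klf9 UMIs in 2.51% of passing barcodes. Nonclassical monocyte-like cells (673 cells, marked by Ace, Treml4, Spn and others) held 74.1 CPM (64.6 to 84.7) and 21.4% of the UMIs. Classical monocyte-like, B cell-like, T cell-like and neutrophil-like cells held 24.5, 17.1, 12.95 and 6.06 CPM. Together these 6 classes held 41.3% of the Klf9 UMIs, and 56.6% lay in passing barcodes outside them. With a gate that asks for a lead of 2 markers over the next class in place of at most 1 marker of another class, a choice made after seeing the data, 157 macrophage-like cells (7.44% of passing barcodes) held 52.6% of the Klf9 UMIs at 278 CPM.

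Macrophage content varied between the ntCZC libraries along with Klf9, although not in all of them. Under the first gate, macrophage-like cells made up 0 of 491 and 1 of 11 passing barcodes in wt. The share was 1.85%, 4.84%, 9.32% and 0% in het replicates 1 to 4 and 15.9%, 0%, 5.56% and 3.33% in null replicates 1 to 4. Under the gate by a lead of 2 markers it was 1.02% and 9.09% for wt replicates 1 and 3. The het libraries then held 12.0%, 17.7%, 35.4% and 0.346%, and the null libraries 29.0%, 2.46%, 13.9% and 6.67%. Those cells held 0% of the Klf9 UMIs of wt replicate 1, 65.5%, 62.5%, 86.8% and 0% in het and 70.4%, 27.8%, 51.4% and 59.6% in null. These 5 genes, all detected in every ntCZC library, summed to 223 and 186 CPM in wt, to 5066, 3786, 4225 and 96.1 CPM in het and to 5736, 1005, 3386 and 2402 CPM in null. Het replicate 4 therefore had a marker sum below that of both wt libraries and yet 71.9 CPM of Klf9. The part of the macrophage-like cells in the Klf9 difference was not tested.

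A difference in Klf9 was also seen within nonclassical monocyte-like cells. Where a library had 20 or more of them, Klf9 stood at 16.3 CPM in wt replicate 1 (150 cells, 8 UMIs), at 77.9 and 95.5 CPM in het replicates 1 and 4, and at 98.0, 56.5 and 94.2 CPM in null replicates 1, 2 and 4. Pooled over each genotype, the level was 16.3 CPM (7.03 to 32.1) in wt, 91.3 CPM (76.0 to 109) in het and 78.7 CPM (62.9 to 97.4) in null. The intervals cover counting error only, and wt rests on a single library here. In tissue, 6 libraries with enough cells of this class held 0 to 73.0 CPM, and the wt libraries there held 62.9, 48.7 and 73.0 CPM.

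**Figure D2:**
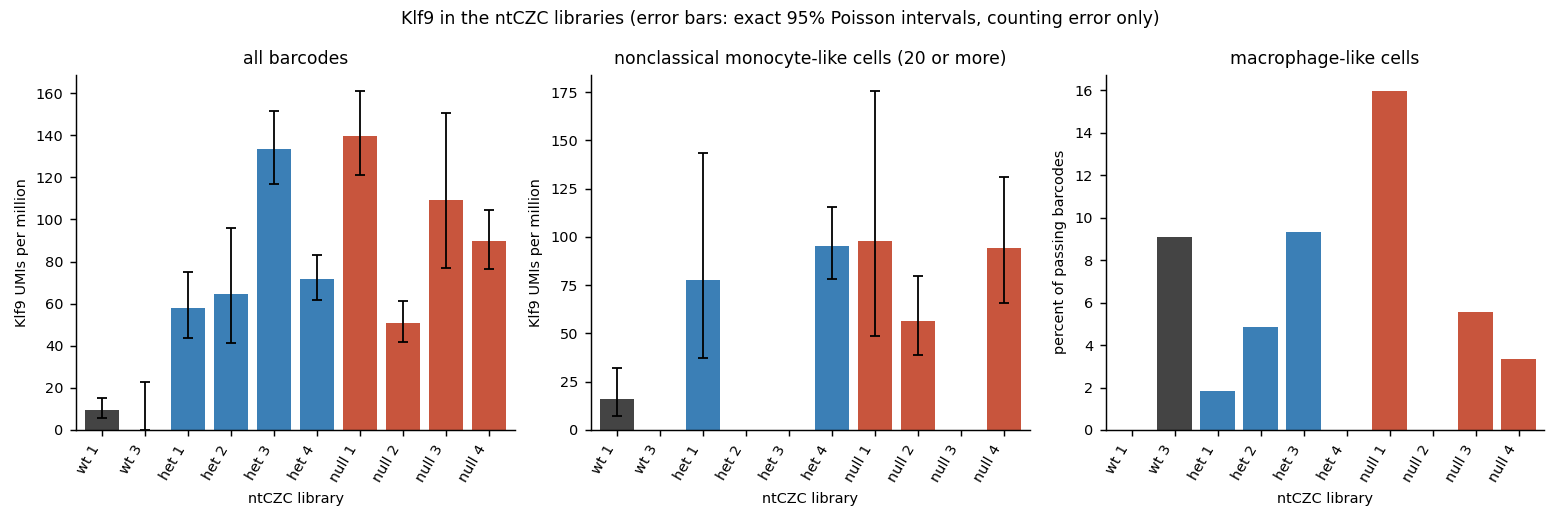
Klf9 in CPM (left and centre vertical axes) in each ntCZC library (horizontal axis), over all barcodes and in nonclassical monocyte-like cells, with exact 95% Poisson intervals, and macrophage-like cells as percent of passing barcodes (right). Libraries without a bar in the centre had fewer than 20 cells of the class, and the wt bars stand below every het and null bar in the left and centre panels.

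None of the other 9 members separated the wt from the het and null circulating libraries. Klf2 averaged 737 ± 718, 1149 ± 408 and 1302 ± 316 CPM in wt, het and null, with wt replicate 1 inside the range of the others. Klf13 averaged 286 ± 343, 438 ± 227 and 382 ± 114 CPM, Klf4 150 ± 203, 250 ± 82.3 and 237 ± 122 CPM and Klf10 48.1 ± 24.3, 93.2 ± 29.4 and 74.3 ± 21.4 CPM. The large wt deviations came from the shallow wt replicate 3. Over the 10 ntCZC libraries, the genes whose log2 level was most like that of Klf9 among 5078 genes were Rasgef1b (Pearson r = 0.945), Tagap (0.907), Tuba1c (0.902), Rps21 (0.900) and Cxcl16 (0.899). The points share depth and haemoglobin content, and the values are descriptive.

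Across the 23 classes of tissue cells with at least 50 cells, each member had an order of its own. Klf2 was highest in endothelial-like cells at 1067 CPM pooled over 4953 cells (1027 ± 181 CPM by library, n = 8), followed by smooth muscle and pericyte-like (947 CPM), nonclassical monocyte-like (844 CPM) and fibroblast-like cells (545 CPM). It was lowest in hepatocyte-like cells at 13.3 CPM. By library, endothelial-like cells held 737 to 1312 CPM, and this range overlapped that of the next class. Over the first 8 Klf2 classes, neighbours in the order overlapped.

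Klf4 was highest in fibroblast-like cells, at 1758 CPM pooled (1588 ± 566 CPM, n = 7 libraries), then in endothelial-like (711 CPM), nonclassical monocyte-like (668 CPM), gastric mucous-like (637 CPM) and kidney intercalated-like cells (508 CPM). Fibroblast-like cells held 852 to 2395 CPM by library, so the lowest library lay inside the endothelial range of 445 to 962 CPM. Within the endothelial-like cells, sub-gates separated 58 lymphatic-like cells with 1499 CPM of Klf4 and 846 CPM of Klf2. The sub-gate for large vessels held 110 cells with 834 CPM of Klf4 and 1298 CPM of Klf2. Liver sinusoidal-like cells (303) held 180 CPM of Klf4, 641 CPM of Klf2 and 139 CPM of Klf9, each below the large-vessel value. These sub-gate values are pooled. Only 1 library had 20 lymphatic-like cells, 1 had 20 large-vessel cells and 4 had 20 sinusoidal-like cells, which limits the comparison.

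Klf9 led in fibroblast-like cells at 363 CPM (339 ± 98.0 CPM, n = 7), ahead of endothelial-like (289 CPM; 287 ± 62.1 CPM, n = 8) and kidney proximal tubule-like cells (224 CPM; 219 ± 25.6 CPM, n = 8), and it stood at 21.7 CPM in tissue macrophage-like cells. The proximal tubule-like values, 189 to 260 CPM by library, were the narrowest of the 3. Fibroblast-like cells held 224 to 509 CPM and endothelial-like cells 210 to 375 CPM, so the 3 classes overlapped. A Klf9 UMI was found in 28.7%, 23.6% and 18.5% of these cells after thinning, against 1.83% of erythroid-like cells, whose median depth of 3287 UMIs exceeded the 1655, 1551 and 2112 UMIs of the 3 classes.

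Klf15, the metabolic factor, followed Klf9 into the proximal tubule. Proximal tubule-like cells held 66.6 CPM (69.8 ± 16.8 CPM, n = 8), hepatocyte-like cells 66.4 CPM on 10 UMIs and alveolar type 1-like cells 64.9 CPM on 10 UMIs. Their Poisson intervals overlapped, and by library alveolar type 1-like cells stood higher than proximal tubule-like cells (116 ± 44.6 CPM, n = 2). The next class, ciliated-like cells, stood at 22.0 CPM. Klf10 was highest in alveolar macrophage-like cells (127 CPM; 127 ± 16.4 CPM, n = 8, from 102 to 156 CPM), then in proximal tubule-like (102 CPM) and nonclassical monocyte-like cells (77.9 CPM), with overlapping ranges.

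Klf5 and Klf6 had their highest levels in epithelial classes. Klf5 stood at 471 CPM in 99 squamous-like cells, at 188 CPM in 97 alveolar type 1-like cells and at 140 CPM in 285 gastric mucous-like cells, where 3 libraries held 112, 132 and 176 CPM. The next class, kidney intercalated-like cells, held 41.3 CPM, and its library range did not overlap that of gastric mucous-like cells. Klf6 was highest in 107 kidney intercalated-like cells (1448 CPM), ahead of ciliated-like (935 CPM), squamous-like (783 CPM), alveolar type 1-like (623 CPM) and neutrophil-like cells (580 CPM). Other epithelial classes held less Klf6, with 410 CPM in kidney proximal tubule-like and 366 CPM in epididymal epithelial-like cells. Lower still were gastric mucous-like (236 CPM), hepatocyte-like (199 CPM) and club-like cells (17.6 CPM). At most 2 libraries had 20 cells of the 4 classes highest in Klf6, which limits the comparison.

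Pooled over cells, Klf3 and Klf13 were both highest in nonclassical monocyte-like cells, although the mean by library of Klf3 was higher in neutrophil-like (438 CPM, n = 8) than in nonclassical monocyte-like cells (420.1 CPM, n = 6). The leading pooled values of Klf3 were in nonclassical monocyte-like (462 CPM), neutrophil-like (446 CPM) and endothelial-like cells (347 CPM), and those of Klf13 in nonclassical monocyte-like (356 CPM), NK cell-like (224 CPM) and endothelial-like cells (185 CPM). Ranges of these neighbours overlapped for both. Other leukocytes were lower, with 84.0 CPM of Klf3 in macrophage-like, 75.5 CPM of Klf13 in neutrophil-like and 16.9 and 38.1 CPM of the 2 genes in plasma cell-like cells. Klf1 had at most 9 UMIs in any class, and 3 UMIs in 277 erythroid-like cells. Over the 23 classes the most alike members were Klf2 and Klf13 (Pearson r = 0.788 on the log2 scale), Klf3 and Klf13 (0.732), Klf4 and Klf10 (0.663), Klf6 and Klf13 (0.651), Klf2 and Klf3 (0.646) and Klf9 and Klf15 (0.622), given as descriptions over classes that share libraries.

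**Figure D3:**
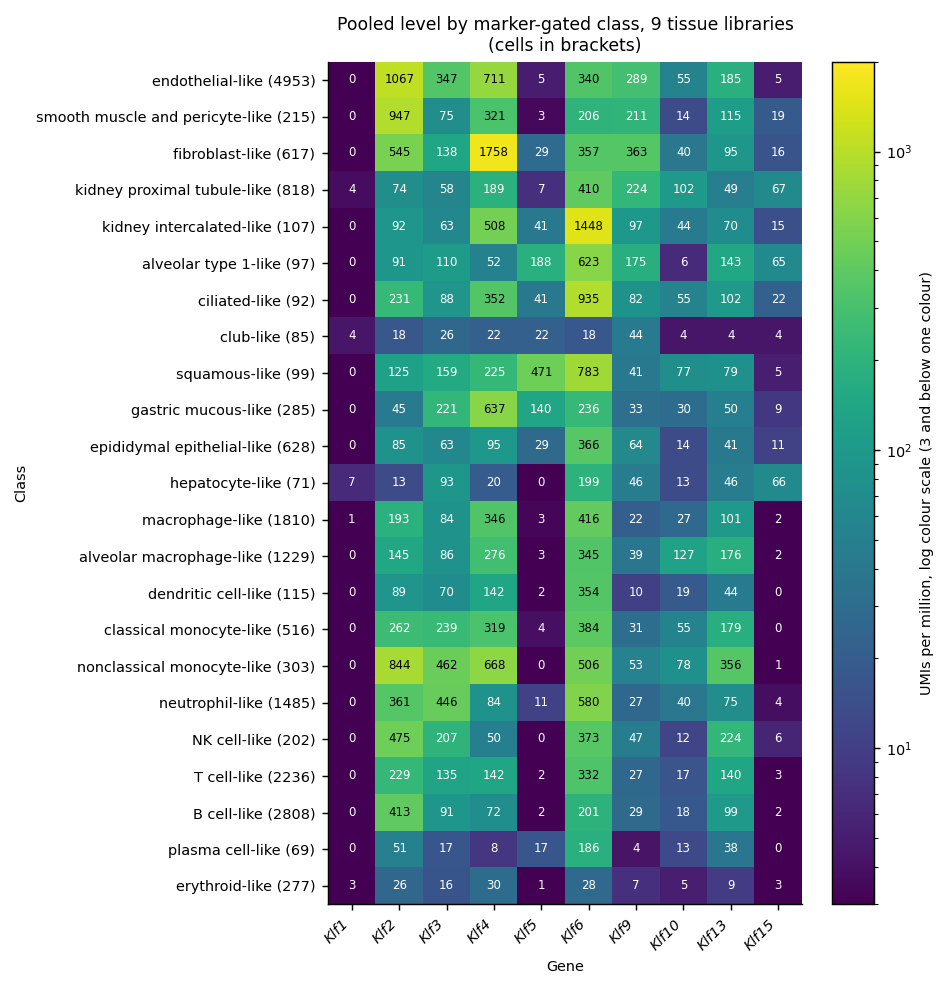
Pooled level of the 10 genes (columns) in CPM, on a log colour scale with the values printed, in 23 marker-gated classes of the 9 tissue libraries (rows, cell numbers in brackets). Klf2 peaks at 1067 in endothelial-like, Klf4 at 1758 and Klf9 at 363 in fibroblast-like, Klf5 at 471 in squamous-like and Klf6 at 1448 in kidney intercalated-like cells.

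Among 5609 genes, those most alike to each member over the classes were Crtc3 (r = 0.845), Med13l and Lats2 for Klf2, Zcchc6 (0.885), Kpna4 and Stim2 for Klf3 and Mafk (0.802), Spred1 and Cdkn1a for Klf4. For Klf5 they were Serinc2 (0.883), Foxa1 and S100a14, for Klf6 Rab5a (0.893) and Rheb, and for Klf9 Pkd2 (0.906), Serpinh1 and Amotl2. Klf10 was most like Ipmk (0.820), Cpt1a and Nampt, Klf13 most like Tmem50a (0.927), Nipbl and Fcho2, and Klf15 most like Decr1 (0.882), Fdx1 and Abhd14b. The 3 genes nearest to Klf1 (Cat, Ttc36 and Azgp1) rest on its few UMIs.

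Within nonclassical monocyte-like cells, circulating libraries still held more Klf13 and, in most of them, more Klf2 than tissue libraries. In nonclassical monocyte-like cells Klf13 stood at 708 CPM in ntCZC wt replicate 1, at 795 and 930 CPM in het replicates 1 and 4 and at 846, 787 and 816 CPM in null replicates 1, 2 and 4. The 6 tissue libraries held 276 to 422 CPM, so the kinds did not overlap (814 ± 73.0 against 335 ± 52.8 CPM). The share of all genes without overlap was not counted in any class. Nothing is therefore read from this gap, or from the gaps of Klf2 in this and other classes. Klf2 in the same cells ran from 321 to 2060 CPM in ntCZC and from 406 to 926 CPM in tissue. The low ntCZC value belonged to null replicate 1 (20 cells), and the other 5 libraries, from 1016 CPM upwards, exceeded every tissue library. Klf3 (450 and 462 CPM pooled), Klf4 (516 and 668 CPM) and Klf6 (400 and 506 CPM) were close in the 2 kinds by comparison.

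In other classes the pooled Klf2 level was also higher in ntCZC than in tissue, by little in T cell-like cells. Classical monocyte-like cells held 1066 and 1547 CPM in ntCZC (wt replicate 1 and null replicate 2) against 164 to 401 CPM in tissue. B cell-like cells held 615 to 2074 CPM in 5 ntCZC libraries, 268 to 795 CPM in 8 tissue libraries and 1146 CPM in PBMC. Neutrophil-like cells held 1901, 361 and 1616 CPM in ntCZC, tissue and PBMC. Of the 102 ntCZC neutrophil-like cells, 92 came from wt replicate 1. T cell-like cells held 313 CPM in ntCZC and 229 CPM in tissue, both below the 945 CPM of PBMC, and by library the ntCZC values (179 and 296 CPM) lay inside the tissue range of 107 to 312 CPM. After thinning, a Klf2 UMI was found in 69.2% of ntCZC, 29.4% of tissue and 66.1% of PBMC B cell-like cells, and in 16.0%, 16.4% and 62.8% of T cell-like cells.

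Macrophage-like cells of blood and tissue stood furthest apart. The 53 ntCZC cells held 2533 CPM of Klf2, 363 CPM of Klf9 and 331 CPM of Klf13, against 193, 21.7 and 101 CPM in 1810 tissue cells. Only null replicate 1 had at least 20 such ntCZC cells (22), with 3547 CPM of Klf2 and 464 CPM of Klf9. The tissue libraries ran from 90.8 to 889 CPM for Klf2 and from 8.86 to 97.8 CPM for Klf9.

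In lymphocytes and neutrophils Klf4 was low in blood. Tissue B cell-like, T cell-like and neutrophil-like cells held it at 72.0, 142 and 84.4 CPM, and 6.43%, 9.31% and 6.48% of them had a UMI after thinning. In blood, 0 of 102 ntCZC neutrophil-like cells had a UMI (upper Poisson limit 22.3 CPM), T cell-like cells stood at 20.7 CPM in ntCZC and 3.66 CPM in PBMC, and B cell-like cells at 41.5 and 30.5 CPM. Erythroid-like cells of tissue had a Klf4 UMI in 4.76% after thinning, and the part of free RNA in these shares was not tested. Organs were dissociated with enzymes before capture, and handling and cell origin cannot be told apart in any of these comparisons.

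**Figure D4:**
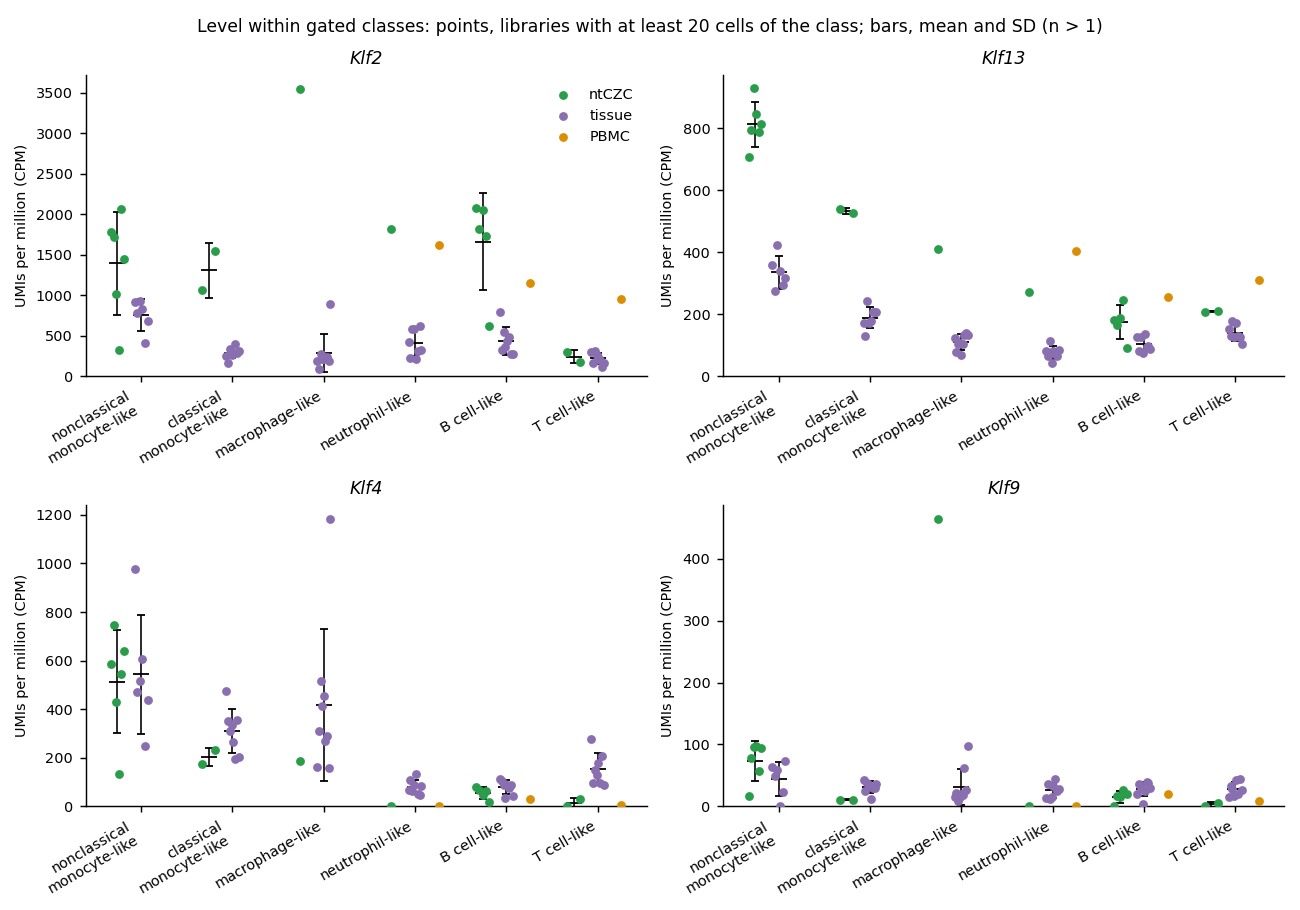
Klf2, Klf13, Klf4 and Klf9 in CPM (vertical axes) within 6 classes (horizontal axes) in ntCZC, tissue and PBMC libraries with at least 20 cells of the class, with mean and SD where there was more than 1 library. Klf13 in nonclassical monocyte-like cells sits between 708 and 930 in ntCZC and between 276 and 422 in tissue. The share of all genes separated in this way was not counted.

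Nalcn genotype was then compared in tissue, a contrast outside the selection rule. The allele is deleted only in cells where the recombinase was active, and the share of such cells in tissue was not measured. Of the 10 members, 0 passed the edgeR quasi-likelihood test at an adjusted p of 0.05 in null against wt, and 0 in het against wt. None reached an unadjusted p under 0.05. The background was as low, with 0.0112% of 17863 genes called in null against wt and 0.0% in het against wt, although 1621 and 1367 genes had an unadjusted p under 0.05 and DESeq2 called 342 and 73 genes. The members' median log2 differences were -0.03 and 0.02, beside -0.02 and -0.03 over all genes tested.

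Klf9 differed by 0.04 ± 0.19 (log2, SE) between null and wt tissue, with a 95% interval from -0.40 to 0.49, and by 0.24 ± 0.20 between het and wt (-0.22 to 0.70). Without null replicate 3, whose genotype rests on its strain entry alone, the null difference of Klf9 was -0.28. Klf2, at 206, 211, 218, 250 and 232 CPM in wt, 336 and 177 CPM in het and 252 and 221 CPM in null, differed by -0.15 ± 0.24 and 0.11 ± 0.26. The null difference of Klf2 is fitted after TMM scaling and has the opposite sign to the CPM means (236 in null, 223 in wt). The largest values belonged to rarely detected genes. Klf15 stood at 12.8, 7.42, 8.80, 4.92 and 5.02 CPM in wt, 12.9 and 14.1 CPM in het and 10.9 and 16.2 CPM in null, a log2 difference of 0.71 ± 0.35 for null (edgeR adjusted p = 0.604) that was 0.0059 without null replicate 3. Klf5 differed by 0.63 ± 0.37 in null (-0.020 without null replicate 2) and Klf1 by 1.66 ± 0.97 (0.12 without null replicate 3). In het, Klf10 had the lowest value at -0.49 ± 0.22 (edgeR adjusted p = 0.648), with a range of -0.83 to -0.22 when libraries were left out. With 2 libraries in each mutant group, intervals this wide leave room for differences that went undetected.

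**Figure D5:**
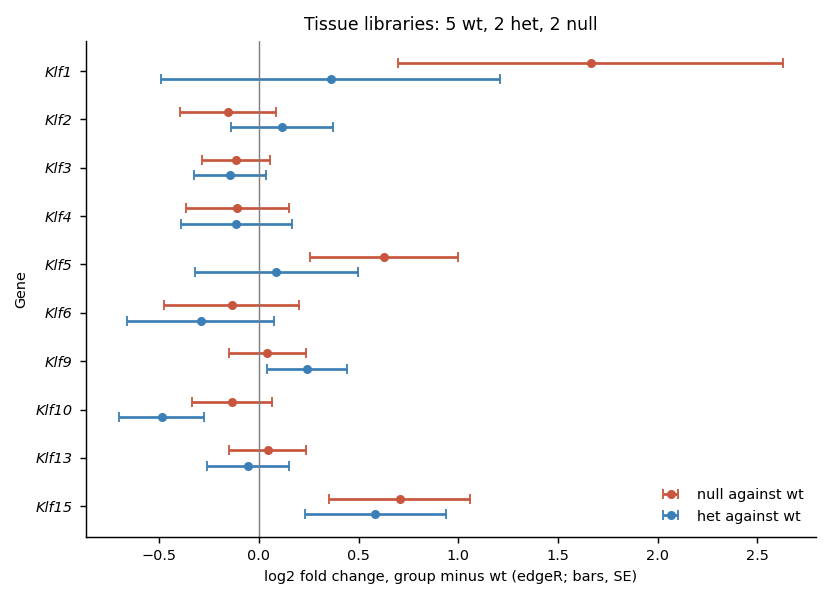
Log2 fold change (horizontal axis) of each gene (vertical axis) in tissue, null against wt and het against wt, from edgeR, with SE bars, for 5 wt, 2 het and 2 null libraries. No gene passed the adjusted threshold, and Klf9 lies at 0.04 for null and 0.24 for het.

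The genotype test was repeated within endothelial-like, macrophage-like, B cell-like, T cell-like, fibroblast-like and kidney proximal tubule-like cells. Deletion of Nalcn was not measured in any class, and the paper reports that Prom1-CreERT2 did not recombine blood-forming cells in bone marrow. Here 8 of the members passed the filter on low counts in at least 1 class, giving 41 tests in each contrast, of which 0 passed in null and 0 in het by edgeR, beside 0.038% and 0.0108% of 36872 gene-by-class tests. An unadjusted p under 0.05 was found 0 times for null and 4 times for het, in proximal tubule-like and fibroblast-like cells. Over all genes, 336 of 4765 and 204 of 2717 had such a p in these classes for het, and 150 and 141 for null. The lowest p of the 4 was that of Klf4 in proximal tubule-like cells. Its levels were 462, 216, 171 and 45.7 CPM in wt, 94.8 and 39.3 CPM in het and 208 and 48.1 CPM in null. The groups overlapped, and the log2 difference of het was -2.06 ± 0.47 (edgeR adjusted p = 0.687). Without the filter on low counts it was called, at -2.04 (edgeR adjusted p = 6.2e-05). That unfiltered fit called 113 of 15657 genes, 99 of them lower, against 0 of 4765 with the filter. The other 3 were Klf6 in the same class (-0.91 ± 0.41), and Klf6 (-0.99 ± 0.39) and Klf4 (0.67 ± 0.30) in fibroblast-like cells. When libraries were left out, these 3 ran from -1.36 to -0.53, from -1.15 to -0.77 and from 0.52 to 0.80. Klf4 in proximal tubule-like cells ran from -2.80 to -1.55.

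Genes that act with the KLFs were compared between ntCZC and tissue as lists, and here a test was made. Of 86 listed genes, 85 were in the matrices, 70 were tested and 40 passed, 16 higher and 24 lower in ntCZC (edgeR, adjusted p at 0.05). Among all 10681 genes tested, 28.5% were higher (3042) and 36.0% lower (3849), with a median log2 difference of -0.08. Under RLE scaling the split was 2202 higher and 4736 lower, with a median of -0.30. The contrast also separates sorted blood from solid organs.

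Of the other KLF genes, 3 were tested and 1 fell. Klf7, which is known from neurons and fat cell precursors, stood at 6.19 to 109 CPM in ntCZC and 69.8 to 137 CPM in tissue, a log2 difference of -1.42 ± 0.22 (edgeR adjusted p = 8.1e-06). Klf16 differed by -0.17 ± 0.19 and Klf11, a TGF-β-induced repressor, by 0.08 ± 0.25, a sign that flips under RLE scaling and DESeq2. Klf8, Klf12, Klf14 and Klf17 gave 8, 1, 0 and 0 UMIs in all ntCZC libraries and were not tested. Of 4 tested Sp factors, the nearest relatives of the KLFs, 1 fell, Sp4 by 0.69 on the log2 scale (SE 0.23).

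Of 9 tested upstream regulators, 5 were higher and 1 lower (median 0.75). Tgfb1, the inducer of Klf10, rose by 1.52 ± 0.16 on the log2 scale, from 103 ± 18.5 CPM in tissue (n = 9) to 308 ± 133 CPM in ntCZC (n = 10). Map3k3, which acts above Mapk7, rose by 1.49 ± 0.16, and Mapk7, Mef2a and Mef2c were also higher. Foxo1 fell by 0.58 on the log2 scale. These last 4 genes, and Thbd, S1pr1 and Tsc22d3 below, were picked after their values were seen. Of 12 cofactors and ubiquitin ligases 2 were higher and 3 lower, among them the deacetylase Hdac2 at -0.96 ± 0.13 and the acetyltransferase Kat2b at -0.70 ± 0.15.

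Of 6 known targets of Klf2 and Klf4 tested, 1 was higher, the integrin Itgb7 at 2.33 ± 0.22, and 3 were lower, of which the endothelial nitric oxide synthase Nos3 had the largest log2 difference (-3.34 ± 0.30). Thbd and S1pr1 were the other 2. ntCZC held 1 gated endothelial-like cell, against 4953 in tissue. Of 6 targets of Klf1, 1 was tested, and Alas2, the first enzyme of haem synthesis in red cells, was higher by 4.21 ± 0.93, a call lost on passing barcodes (0.06).

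The remaining 3 lists had calls in both directions. Among 11 glucocorticoid-induced genes 3 were higher and 3 lower, with Mt2 at -3.88 ± 0.62 and Errfi1 at -3.09 ± 0.28 the largest and Tsc22d3 higher by 1.64 ± 0.21. Of 12 clock genes 1 was higher and 8 lower (median -0.77), led by Per3 (-2.06 ± 0.37) and Per2 (-1.96 ± 0.27). Of 14 immediate early and heat shock genes, many of which respond to dissociation, 4 were higher and 4 lower. The heat shock genes Hspa1b and Hspa1a fell by 5.25 and 3.98 on the log2 scale, with 254 to 512 CPM of Hspa1b in tissue and 0 to 16.8 CPM in ntCZC. Their part in the levels of the KLF genes was not tested.

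Between ntCZC genotypes, 0 listed genes passed in het against wt, null against wt and null against het by edgeR, whereas 13 calls were made with DESeq2 and 8 without the filter on low counts. The background was 0.107%, 0.0% and 0.0% of 9379 genes, with 741, 360 and 686 genes at an unadjusted p under 0.05 and 106, 13 and 21 called by DESeq2. Klf11 stood at 0 to 4.25 CPM in the wt libraries, at 16.8 to 29.2 CPM in het and at 10.7 to 23.4 CPM in null, on 8 UMIs in wt (edgeR adjusted p = 0.246 for het and 0.983 for null). Klf7 averaged 22.5 ± 23.0, 51.6 ± 38.6 and 41.8 ± 22.9 CPM and Klf16 11.0 ± 2.00, 11.5 ± 3.16 and 5.91 ± 1.82 CPM in wt, het and null.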

How the data were processed

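The deposited files were 10x matrices of raw UMI counts, in whole numbers. The authors aligned to mouse mm10 and deposited filtered barcodes without normalization. The processing notes name Cell Ranger 2.1.1 and Seurat, and the matrix headers name Cell Ranger 3.0.2. Groups came from the labels. Tissue null replicate 3 is named null by its strain entry alone, and its transcripts include Y-linked genes although it is labelled female. The members and lists were chosen with earlier results of these data known. Named genes were the 10 members, every other KLF gene, the 2 genes of each other list with the largest absolute log2 change among those past the threshold, the 5 genes most like Klf9 over ntCZC libraries and the 3 most like each member over classes (Pearson r of log2(CPM + 10)). A marker and a gene that this rule selects are not reported here.

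Levels (CPM) are counts scaled to 1000000 UMIs in each library. A 3′ tag count is not compared between genes. For classes, barcodes needed at least 200 genes, at most 25% mitochondrial UMIs, at least 3 markers of a class and at most 1 of every other. This gate leaves out barcodes with markers of several classes, and no doublet caller was run. Class names end in "-like". In each of the 23 tissue classes, some of its own markers were among the 10 leading genes. The gate used those same markers, so this was no independent test of the class names. Classes in blood and endothelial sub-gates were not checked in this way. Shares used cells thinned to 1000 UMIs. Intervals of log2 differences (95%) used the t distribution matching the edgeR p. Poisson intervals (95%) and floors (3 counts) cover counting error only. Organ hashtags were left aside, and organs were not separated.

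Counts summed per library were tested with edgeR 4.0.16 (R 4.3.3), quasi-likelihood, TMM, filterByExpr, sex as covariate, Benjamini-Hochberg at 0.05 over all genes tested, after a check on simulated counts. Class fits needed 20 cells per library and 2 libraries per genotype. Alternatives were RLE, DESeq2 1.42.0, no filter, no covariate, passing barcodes, a replicate block, other gates and leaving out each library. Replicates were distinct (lowest chi-square per degree of freedom over 25 pairs, 4.75). Python 3.11.15, pandas 2.3.3, NumPy 2.4.6, SciPy 1.17.1 and matplotlib 3.10.9 were used. Gene coordinates came from GENCODE on GRCm38 and promoter windows from RefSeq.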

Additional observations from a re-analysis of the deposited data

Results flagged for a closer look

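Single libraries that lay far from their group were sought in 47 tests over groups of 4 to 10 libraries, and 5 values were found. Chance gives about 1 in 20. Klf2 in tissue het replicate 1 stood at 336.4 CPM, the highest of 9 tissue libraries. Klf5 in tissue null replicate 2 stood at 35.12 CPM, the highest of 9. Klf6 in ntCZC het replicate 1 stood at 301.4 CPM, the lowest of the 4 het libraries. Klf15 in ntCZC het replicate 3 stood at 0.5701 CPM, on 1 UMI, which made it the highest of 10 ntCZC libraries and of 4 het libraries.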

How the results depend on the processing

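The count of members called stayed at 0 in both whole-tissue contrasts under each alternative run. Within classes it stayed at 0 except for 1 call in het without the filter on low counts. This was Klf4 in proximal tubule-like cells (log2 -2.04, edgeR adjusted p = 6.2e-05), in a fit that called 113 of 15657 genes. The stricter gate, with no marker of another class, could not be fitted in any class, and the gate by a lead of 2 markers was chosen after seeing the data. Listed genes called between ntCZC and tissue ranged from 36 to 44 when libraries were left out. In ntCZC genotypes the count of 0 rose to 13 with DESeq2 and to 8 without the filter, and ranged from 0 to 2 when libraries were left out (2 without het replicate 4, 1 without wt replicate 1). Some signs turned. On passing barcodes Klf13 in null was -0.0041 and Klf1 in het -0.21, against 0.04 and 0.36 in the main fit. Leaving out libraries gave ranges in null of 0.12 to 3.70 (Klf1), 0.0059 to 1.40 (Klf15), -0.44 to 0.087 (Klf2), -0.34 to 0.093 (Klf4), -0.020 to 1.11 (Klf5), -0.78 to 0.35 (Klf6), -0.28 to 0.38 (Klf9) and -0.10 to 0.21 (Klf13), and in het of -0.26 to 1.08 (Klf1), -0.25 to 0.39 (Klf2), -0.49 to 0.17 (Klf4), -0.21 to 0.28 (Klf5) and -0.32 to 0.16 (Klf13). Klf11 between ntCZC and tissue was -0.15 with DESeq2, -0.15 with RLE and -0.145 to 0.24 when libraries were left out. Over all genes, the 2 calls of tissue null against wt became 342 with DESeq2 and 17 without the filter, the 0 of het against wt became 73 with DESeq2, and the 10 of ntCZC het against wt became 106 with DESeq2, 92 without the filter and 5 with RLE. Of the log2 values of members under alternatives, 334 kept sign and call, and the cause of the changes was not tested.

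The main tests treated libraries as unpaired. Among same-numbered libraries, 0 of 5 tissue pairs, 4 of 8 ntCZC pairs and 1 of 6 pairs across kinds had deviations correlated over 0.1. The highest r was 0.401, in ntCZC. Several same-numbered ntCZC and tissue libraries had the same age and sex, and others did not. Such correlations cannot show whether libraries came from the same animals, so shared animals remain possible. With the replicate block, 0 members were called in tissue and in classes, 33 listed genes between ntCZC and tissue and 0 in ntCZC genotypes. Under this block Klf2 in null was 0.11, Klf11 between kinds was -0.44, and Sp4 (-0.61) and Alas2 (2.38) were no longer called.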

Other observations

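The 2 tissue libraries with conflicting genotype labels held Klf2 at 141 and 360 CPM, Klf4 at 103 and 354 CPM, Klf9 at 59.5 and 108 CPM, Klf13 at 52.9 and 132 CPM and Klf15 at 10.5 and 8.03 CPM. Of their 20297 passing barcodes, 36.4% met the marker gate. Their endothelial-like cells held Klf2 at 734 and 1203 CPM, their fibroblast-like cells held Klf9 at 270 and 683 CPM, and their nonclassical monocyte-like cells held Klf13 at 324 and 368 CPM, inside the range of the 6 tissue libraries with a group.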
